A study of Mus musculus with 14 samples.

Results

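The genes described here serve antigen presentation by MHC class II, and there are 10 of them among the 24908 genes and unnamed transcripts measured in the splenocytes. They are H2-Aa, H2-Ab1, H2-Eb1, Cd74, H2-DMa, H2-DMb1, H2-Oa, H2-Ob, Ciita and Ctss, listed by name, with earlier results of these data known. A probe was assigned to a gene when its accession maps to that gene's symbol in RefSeq, which gave 15 probes, with at least 1 for each gene. RNA came from spleens of 7 WT and 7 Sting gt/gt mice on the C57BL/6 background, and 1 array was hybridised per mouse. The labels give an age of 10-14 weeks, which in the methods is the age at induction. Mice of both groups had been injected intradermally with chicken collagen type II (CII) in complete Freund's adjuvant (CFA) 2 weeks earlier, and no uninjected group was analysed here, so every value is from immunized spleen. Collagen-induced arthritis (CIA), which this immunization starts, is a mouse model of rheumatoid arthritis. STING is the adaptor that passes on the signal of cytosolic DNA, and the golden ticket allele (gt), made by chemical mutagenesis, is a point mutation after which the protein is not detected. The WT mice were purchased and the Sting gt/gt mice came from another colony, so the source of the mice goes with the genotype and cannot be told apart from it. The methods add that mice were bred and kept at the study's own facility.

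MHC class II molecules display peptides from the endosome on the cell surface to CD4+ T cells. B cells, dendritic cells and macrophages carry them, and in the spleen most of the cells that do so are B cells. An alpha and a beta chain pair in the endoplasmic reticulum with the invariant chain CD74, endosomal proteases cut CD74 down to a small peptide in the groove, and H2-DM exchanges that peptide for an antigenic one, an exchange that H2-O holds back. CIITA, a coactivator that does not bind DNA by itself, switches class II genes on from promoters that carry an X box, bound by the RFX complex, and a Y box, bound by NF-Y.

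The X and Y boxes are shown first because they are the known promoter elements of class II genes. RefSeq promoter windows of GRCm38.p6, from 250 bases before to 50 bases after the gene start, were at hand for 7 of the 10 genes. On either strand, 28 to 34 bases apart from start to start, the letters GNAAC of the X box core followed by GATTGG of the Y box were found in the windows of 5 of these 7 genes and in 142 of all 32851 windows (0.432%). The letters and the spacing were chosen after these promoters had been read. Alone, GNAAC stood in 84.8% and GATTGG in 16.1% of all windows. The pair was not found in the windows of H2-DMa and Ctss. The 5 stretches follow, all from the class II region of chromosome 17, read 5′ to 3′ along the gene, with the X box core and the Y box in capitals.
H2-Aa (chr17:34287859-34287912, minus strand): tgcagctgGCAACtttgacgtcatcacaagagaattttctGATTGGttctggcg
H2-Eb1 (chr17:34305768-34305820, plus strand): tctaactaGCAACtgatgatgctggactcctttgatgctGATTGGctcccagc
H2-DMb1 (chr17:34153089-34153142, plus strand): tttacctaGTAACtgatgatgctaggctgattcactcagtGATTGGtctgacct
H2-Oa (chr17:34092295-34092348, plus strand): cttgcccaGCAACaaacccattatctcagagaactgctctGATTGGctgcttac
H2-Ob (chr17:34238810-34238860, plus strand): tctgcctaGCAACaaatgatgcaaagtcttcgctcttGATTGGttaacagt
The 2 motifs start 32 bases apart in H2-Aa, H2-DMb1 and H2-Oa, 31 in H2-Eb1 and 29 in H2-Ob, and the Y box begins 44 to 62 bases before the gene start.

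For each array, the log2 signal was set against the array's 75th percentile, so a value of 0 is the signal below which 75% of its spots lie. Between 30781 and 34400 of 56605 probes were well above background per array, and the 75th percentile ranged from 562 to 766 intensity units. All 15 probes were well above background on all 14 arrays, none was saturated and none carried an outlier flag. The number of arrays limits the precision. Replicates 1 to 3 of both groups were scanned on one day (scan day 1) and replicates 4 to 7 on another (scan day 2). On scan day 2 all Sting gt/gt arrays lay on 1 slide and the WT arrays on others, so slide and genotype cannot be told apart there. The targeted gene, Sting1, had a log2 signal of 2.35 to 2.85 in WT and 2.45 to 2.77 in Sting gt/gt mice, and an RNA level does not check a point mutation. Markers of B cells were well above background on all 14 arrays, as were those of T cells, macrophages and dendritic cells.

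Over all 14 arrays, none of the 10 genes passed the test of Sting gt/gt against WT mice. Of their log2 fold changes 6 were above 0 and 4 below, from -0.12 for Ciita to 0.12 for H2-Aa, with a median of 0.01, where the median of all genes was 0.02. By limma, 0 of the 10 genes had an unadjusted p under 0.05, which is the cut-off the study used, where 868 of 24908 genes (3.48%) did, and 0 had one by the exact permutation test either. The adjusted p by limma was 0.9998 for each. At probe level the count was 0 of 15 probes, where 3.43% of all probes passed. The 95% confidence intervals differed in width between genes, with the lowest end at 0.727-fold for H2-Ob and the highest at 1.48-fold for H2-Aa. With the replicate number as a block, the count was 0 of 10 genes beside 1416 of all genes. Single mice moved the count over all genes, since it was 1967 when Sting gt/gt replicate 1 was left out, 539 when replicate 5 of that genotype was and 496 when replicate 6 was, and that of the 10 stayed at 0 with any 1 array left out. Spleen RNA is a mixture, in which fewer cells of a type and less RNA per cell cannot be told apart.

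The chains of the class II molecule itself come first. H2-Aa, the alpha chain of I-A, had log2 signals from 3.09 to 4.41 with a median of 3.93 in the 7 WT mice and from 3.42 to 4.42 with a median of 4.07 in the 7 Sting gt/gt mice. The ranges overlapped almost wholly, and the lowest values in both groups were from scan day 1. Its mean was 3.88 ± 0.49 (SD, n = 7) in WT and 4.01 ± 0.32 (SD, n = 7) in Sting gt/gt mice, with 0.12 (standard error 0.21) as log2 fold change. H2-Ab1, the beta chain that pairs with it, lay between 6.96 and 7.46 with a median of 7.02 in WT and between 6.90 and 7.41 with a median of 7.12 in Sting gt/gt mice. On this scale the WT values were close to each other except in replicate 2, the highest of all 14. Its log2 fold change was 0.04 (standard error 0.11). H2-Eb1, the beta chain of I-E, was the steadiest member, with 6.78 to 7.06 and a median of 6.94 in WT and 6.79 to 7.23 and a median of 6.90 in Sting gt/gt mice. Its log2 fold change of 0.02 (standard error 0.09) had a 95% interval from 0.887-fold to 1.16-fold. C57BL/6 mice do not make the I-E alpha chain, and its gene H2-Ea was not among the genes tested here.

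Cd74, the invariant chain, spanned 5.60 to 6.27 with a median of 5.97 in WT and 5.58 to 6.38 with a median of 6.05 in Sting gt/gt mice. Both groups thus covered the same range, and the log2 fold change was 0.01 (standard error 0.14). Ctss, the cysteine protease cathepsin S that makes the last cuts in the invariant chain, spanned 5.56 to 6.22 with a median of 6.12 in WT and 5.51 to 6.34 with a median of 5.97 in Sting gt/gt mice. On this scale all 3 scan day 1 arrays were below all 4 scan day 2 arrays within each group. In the log2 values deposited by the authors, which have another scale, the days overlapped in both groups. There WT replicate 2 of scan day 1 was at 15.39 and WT replicate 4 of scan day 2 at 15.28. Sting gt/gt replicate 3 of scan day 1 was at 15.36 and replicate 5 of scan day 2 at 15.01. The log2 fold change of Ctss between genotypes was -0.01 (standard error 0.15).

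The genes of peptide exchange were as close between genotypes. H2-DMa, the alpha chain of the exchange factor, ranged from 1.06 to 2.27 with a median of 1.75 in WT and from 1.39 to 2.05 with a median of 1.79 in Sting gt/gt mice, with a fold change on the log2 scale of 0.06 (standard error 0.18). H2-DMb1, a beta chain for it, ranged from 3.80 to 4.34 with a median of 4.19 in WT and from 3.76 to 4.56 with a median of 4.14 in Sting gt/gt mice, with a fold change on the log2 scale of 0.08 (standard error 0.13). The WT mice reached lower than the Sting gt/gt mice for H2-DMa and not for H2-DMb1. H2-Oa, the alpha chain of the inhibitor, ranged from 2.44 to 3.20 with a median of 2.82 in WT and from 2.62 to 3.03 with a median of 2.68 in Sting gt/gt mice, with a fold change on the log2 scale of -0.02 (standard error 0.13). H2-Ob, its beta chain, ranged from 1.68 to 2.80 with a median of 2.28 in WT and from 1.93 to 2.55 with a median of 2.12 in Sting gt/gt mice, with a fold change on the log2 scale of -0.08 (standard error 0.18). For both chains of H2-O, the Sting gt/gt values lay inside the WT range.

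Ciita, the coactivator of class II genes, had the lowest log2 fold change of the 10, at -0.12 (standard error 0.14, exact permutation p = 0.403, two-sided). Its log2 signal was 3.79 to 4.58 with a median of 4.12 in WT and 3.72 to 4.47 with a median of 4.09 in Sting gt/gt mice. The medians differed by less than the SD of 0.25 in each group.

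**Figure D1:**
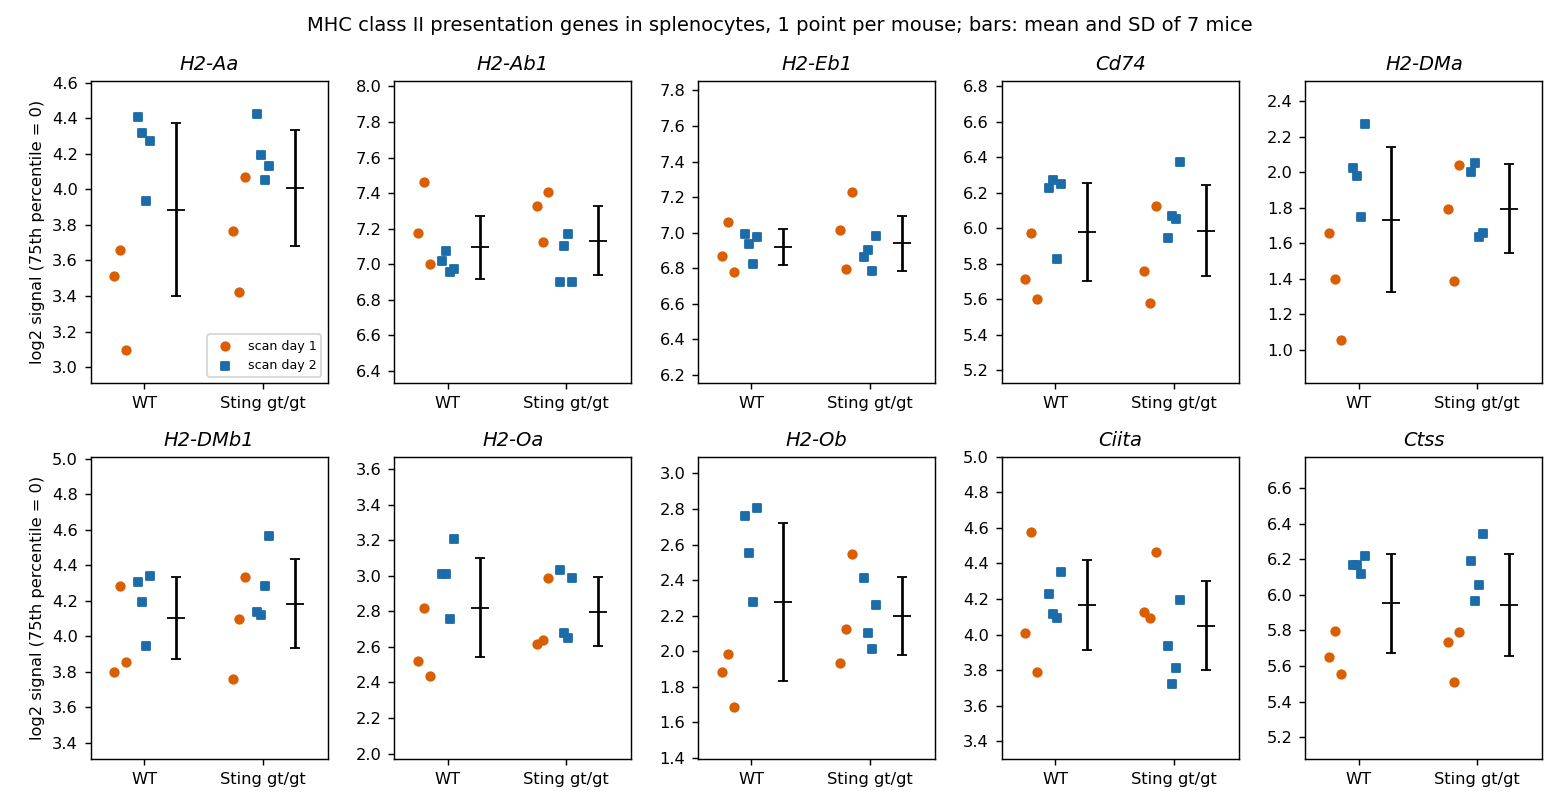
Log2 signal of the 10 genes (75th percentile of each array set to 0), 1 point per mouse, by genotype, with scan day 1 as circles and scan day 2 as squares, and the mean and SD of 7 mice as bars; the vertical span is the same in each panel. The genotypes overlap in all 10 panels, while the points of Ctss in both genotypes and of H2-Aa, H2-DMa and H2-Ob in WT mice separate by scan day (H2-Aa of WT mice, 3.09 to 3.66 on scan day 1 and 3.93 to 4.41 on scan day 2).

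Read on each scan day alone, the genotype difference pointed up on the first and mostly down on the second. On scan day 1, all 10 genes were higher in the 3 Sting gt/gt than in the 3 WT mice, with log2 fold changes from 0.01 for Ctss to 0.37 for H2-DMa and a median of 0.11, where the median of all genes was 0.02. None passed an unadjusted p under 0.05 by limma, where 3.86% of all genes did, and the genotypes overlapped for each of the 10. The fit of scan day 1 was not repeated with single arrays left out, so the part of single arrays in this direction was not tested. Among all 14 arrays, of both scan days, WT replicate 3 was the lowest for 5 of the 10 genes, and Sting gt/gt replicate 3 was among the 3 highest for 5. No other of the 14 arrays lay on the slide of Sting gt/gt replicate 3. The 10 genes also varied together between arrays, as given below, so they are not 10 separate observations. On scan day 2, 8 of the 10 were lower in the 4 Sting gt/gt than in the 4 WT mice, with a median of -0.04, where the median of all genes was 0.02. H2-Ob alone of the 10 passed an unadjusted p under 0.05 by limma there, where 23.3% of all genes did. In all, 8 of the 10 genes had opposite signs on the 2 days, as did 59.8% of all genes.

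Read from the brightest probe of each gene, H2-Ob had the lowest interaction of genotype and scan day among the 10. On scan day 1 its log2 signals were 1.88, 1.98 and 1.68 in WT and 1.93, 2.12 and 2.55 in Sting gt/gt mice. On scan day 2 they were 2.76, 2.55, 2.28 and 2.80 in WT and 2.41, 2.10, 2.01 and 2.26 in Sting gt/gt mice. The WT arrays thus stood higher on scan day 2 than on scan day 1 without overlap, the Sting gt/gt arrays did not, and the genotypes overlapped on each day. The log2 fold change was 0.35 (standard error 0.19, unadjusted p = 0.108 by limma) on scan day 1 and -0.40 (standard error 0.15, unadjusted p = 0.0221, adjusted p = 0.149 by limma) on scan day 2. The interaction of genotype and scan day was -0.75 (standard error 0.24, unadjusted p = 0.00765, adjusted p = 0.128 by limma). It was the only interaction under 0.05 among the 10 genes, where 18.0% of all genes had one, and none of the 10 passed the adjustment over all genes. The other H2-Ob probe, A_51_P254625, had an interaction of -0.65 (standard error 0.27, unadjusted p = 0.0336, adjusted p = 0.240 by limma) and a scan day 2 log2 fold change of -0.27 (standard error 0.17).

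For the other members, read in the same way, the interaction was below 0 as well and did not pass the unadjusted threshold, but it did for a second probe of Ciita. H2-DMa went from 0.37 on scan day 1 to -0.17 on scan day 2, an interaction of -0.54 (standard error 0.27, unadjusted p = 0.0667, adjusted p = 0.313 by limma). Ciita went from 0.10 to -0.28, where its scan day 2 log2 signals were 4.23, 4.12, 4.09 and 4.35 in WT and 3.94, 3.72, 3.81 and 4.20 in Sting gt/gt mice, so that 1 Sting gt/gt array lay within the WT range. Its other probe, A_55_P2741198, was at -0.53 (standard error 0.15, unadjusted p = 0.00675, adjusted p = 0.0958 by limma) on scan day 2, with an interaction of -1.003 (standard error 0.33, unadjusted p = 0.00978, adjusted p = 0.148 by limma). On that day the Ciita probe from which the gene was read had an unadjusted p of 0.0520 by limma. H2-Ab1, H2-Eb1, Cd74, H2-DMb1 and Ctss stayed between -0.05 and 0.08 on scan day 2 and between 0.01 and 0.11 on scan day 1.

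**Figure D2:**
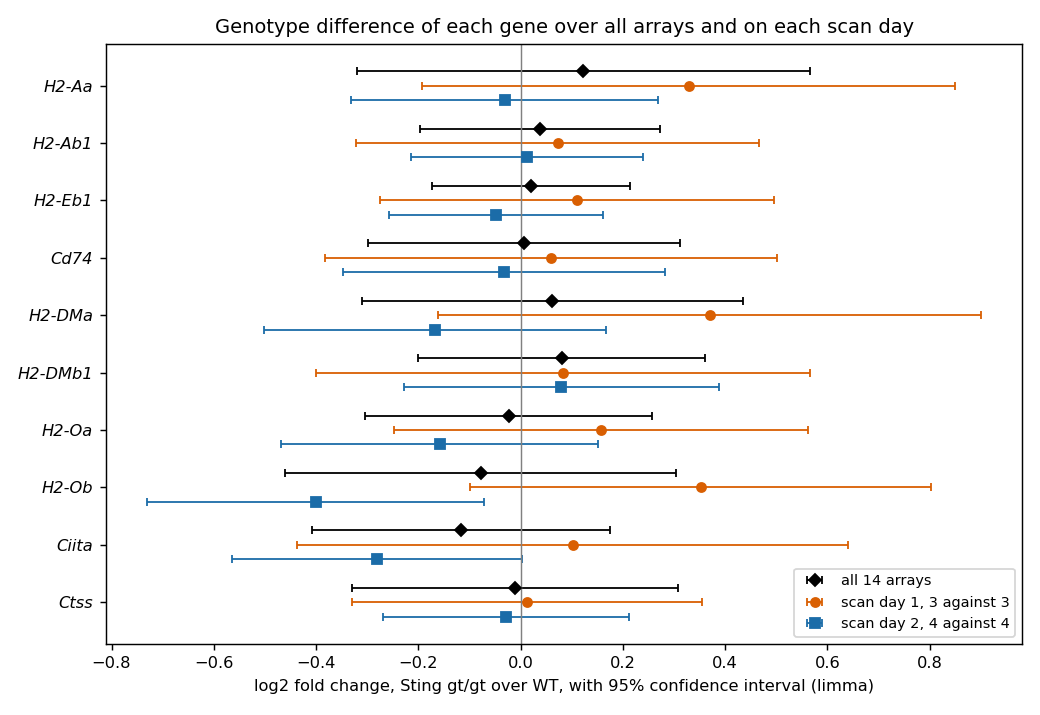
Log2 fold change of Sting gt/gt over WT (horizontal axis) of each gene with its 95% confidence interval by limma, over all 14 arrays (diamonds), on scan day 1 (circles, 3 against 3) and on scan day 2 (squares, 4 against 4). All intervals over 14 arrays include 0, and the H2-Ob interval of scan day 2, around -0.40, is the only one drawn that does not.

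Of 8 B cell markers, 7 were higher in Sting gt/gt mice on scan day 1 (median log2 fold change 0.25). On that day 1 passed the threshold, beside 3.86% of all genes. On scan day 2 all 8 were lower (median -0.49) and 6 passed, beside 23.3% of all genes, and slide and genotype cannot be told apart there. Over all 14 arrays none passed, beside 3.48% of all genes. On scan day 2 the mean log2 signal of the 8 ranged from 2.36 to 2.89 in WT and in Sting gt/gt mice from 1.99 to 2.31, without overlap, and on scan day 1 from 1.92 to 2.32 and from 2.21 to 2.69. Cd79a, a chain of the B cell receptor, was at 0.39 on scan day 1 and -0.39 on scan day 2. Of 6 plasma cell markers, 4 were higher past the threshold on scan day 2, beside the same 23.3% of all genes. Among them were Sdc1, syndecan-1 (log2 fold change 0.84), and Tnfrsf17, the BCMA receptor (0.76). The other two did not pass, Mzb1 at 0.08 and Prdm1, a repressor that drives plasma cell differentiation, at -0.28. When the mean of the 8 B cell markers on each array took the place of the 75th percentile, a setting chosen after seeing the data, the interaction of every gene moved up by the same amount, to a median of 0.74 over all genes and to -0.01 for H2-Ob. That shift is fixed by the markers and says nothing particular to H2-Ob. On that scale 5 of the 10 class II genes passed an unadjusted p under 0.05 for the interaction, as did 50.6% of all genes. The part of B cell numbers in the values was not tested.

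**Figure D3:**
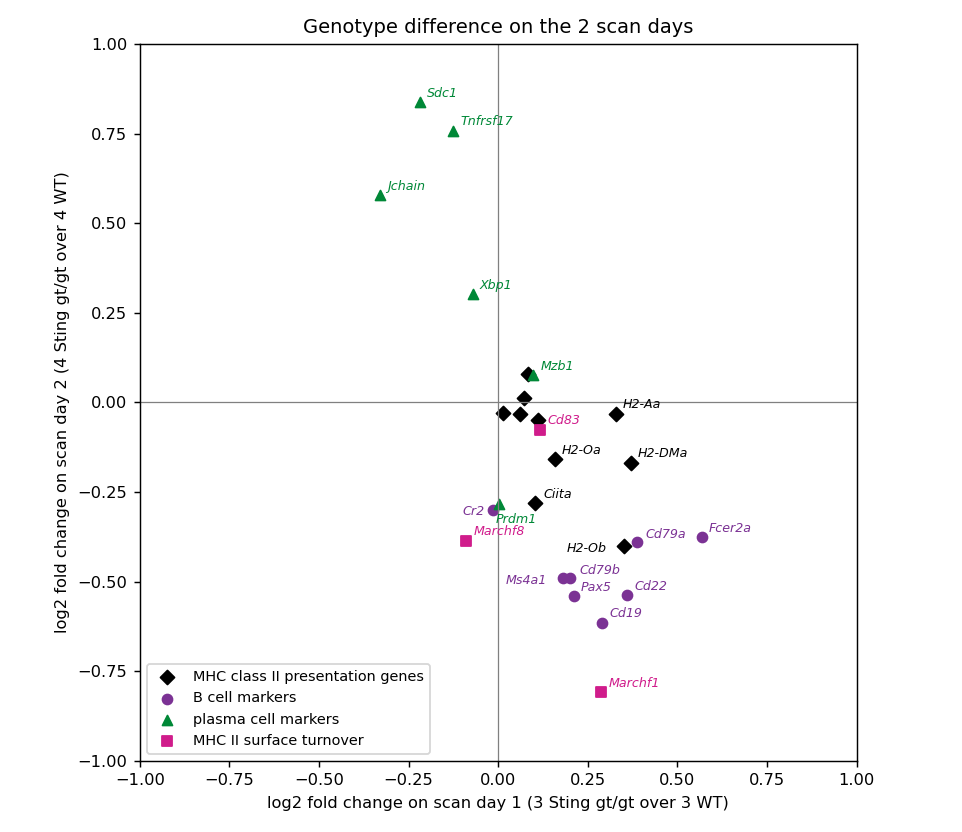
Log2 fold change of Sting gt/gt over WT on scan day 1 (horizontal axis, 3 against 3 mice) and on scan day 2 (vertical axis, 4 against 4), 1 point per gene, for the 10 class II genes (diamonds, 5 of them named), B cell markers (circles), plasma cell markers (triangles) and genes of MHC II surface turnover (squares). H2-Ob, at 0.35 and -0.40, lies among the B cell markers, while most class II genes lie near 0 on the vertical axis.

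Few markers of the other cells that present antigen passed the threshold. Of 7 dendritic cell markers none passed the threshold over all 14 arrays, with -0.01 as the median log2 fold change. On scan day 2 only Siglech, of plasmacytoid dendritic cells, did (-0.30), beside 23.3% of all genes. Of 8 markers of macrophages and monocytes none passed over all arrays or on either day, with a median of 0.05. T cell markers (7 genes, median 0.04), neutrophil markers (6 tested, median 0.21) and NK cell markers (4 genes, median 0.18) had none past the threshold over all arrays. On scan day 1 all 4 NK cell markers were above 0 and 1 passed, Ncr1 (0.50), beside 3.86% of all genes. On scan day 2, 1 of 6 neutrophil markers passed, Mpo (0.70), beside 23.3% of all genes. No T cell marker passed on either day. All 6 erythroid markers were below 0, with a median of -0.42, and 2 of 6 passed, beside 3.48% of all genes. Tfrc, the transferrin receptor (-0.52), was among those that passed. The mean log2 signal of the 6 was 3.44 to 4.11 in WT and 3.04 to 4.33 in Sting gt/gt mice. On scan day 2 alone, 5 of the 6 erythroid markers were lower past the threshold, beside 23.3% of all genes, with a median of -0.60. Their mean log2 signal that day was 3.49 to 4.08 in WT and 3.04 to 3.43 in Sting gt/gt mice, without overlap. Their part in the class II values was not tested.

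More class II probes passed the test between scan days than between genotypes, as was so over all probes. With genotype in the model, 7 of the 15 probes had an adjusted p under 0.05 by limma for scan day, 5 higher and 2 lower on scan day 2, where 39.0% of all probes differed. All 4 probes of H2-Ab1 were among the 7, and both lower ones were of this gene. Read from the brightest probe, 4 of the 10 genes passed. H2-Aa was 0.63 higher on the log2 scale on scan day 2 (standard error 0.13, adjusted p = 0.00179 by limma) and Ctss 0.48 higher (standard error 0.08, adjusted p = 0.000365 by limma). Cd74 was 0.33 higher (standard error 0.11, adjusted p = 0.0307 by limma), and H2-Eb1 was at -0.05 (standard error 0.09). Each mouse was scanned on 1 day, so mice and scan day cannot be told apart. The test between scan days was not repeated on the authors' deposited values. How far these differences depend on the scaling was therefore not tested.

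The 4 probes of H2-Ab1 did not follow each other from day to day. The brightest, A_55_P1962747, from which the gene was read, ranged from 7.003 to 7.46 on scan day 1 and from 6.90 to 7.17 on scan day 2, a log2 difference of -0.24 (standard error 0.09, adjusted p = 0.0457 by limma). A_55_P2146560 went the same way, by -0.49 (standard error 0.11, adjusted p = 0.00308 by limma), from 6.998 to 7.45 on scan day 1 to 6.41 to 6.99 on scan day 2 without overlap. The other pair rose, A_52_P683598 by 0.35 (standard error 0.10, adjusted p = 0.0147 by limma) and A_55_P2741874 by 0.42 (standard error 0.15, adjusted p = 0.0355 by limma). The probes that fell had the higher WT means, 7.09 and 6.97, beside 6.11 and 4.28 for those that rose. In the authors' deposited log2 values, where the days were not tested, the brightest probe ranged from 16.22 to 16.68 on scan day 1. Its scan day 2 values there, 16.38 to 16.61, lay inside that range, so these ranges do not show the fall. The genotype difference over 14 arrays was between -0.05 and 0.06 for all 4 probes. Which transcript each probe reads is not given in the sources used here.

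**Figure D4:**
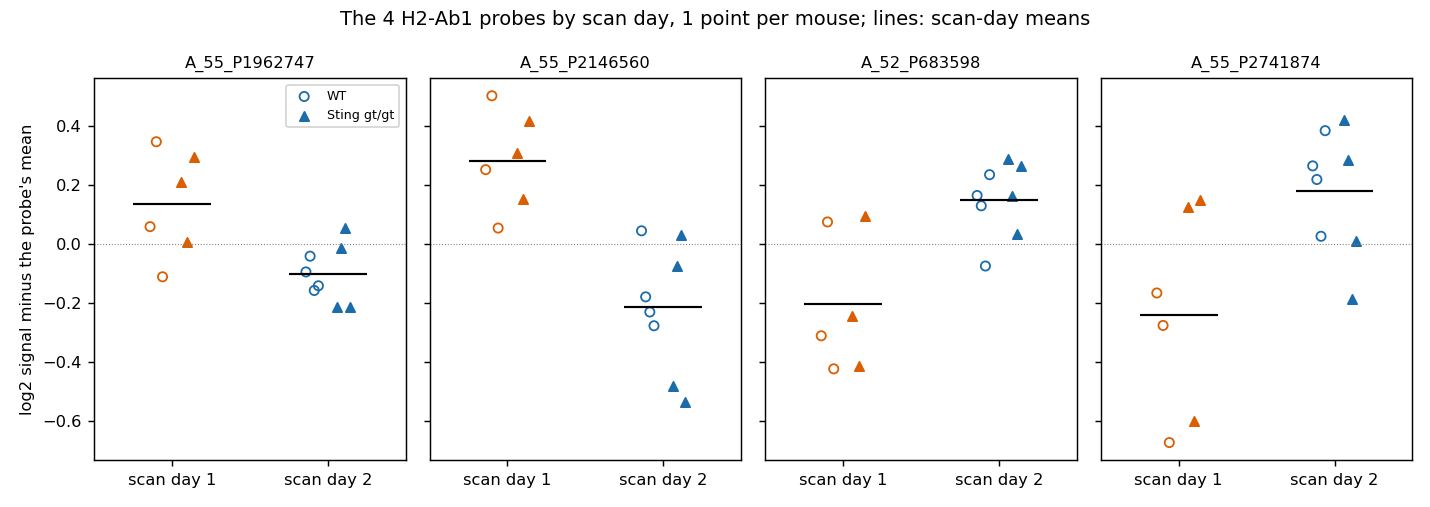
Log2 signal of the 4 H2-Ab1 probes minus each probe's mean over 14 arrays (vertical axis), by scan day, 1 point per mouse (open circles WT, filled triangles Sting gt/gt), with scan-day means as lines. The first 2 probes are lower on scan day 2, by 0.24 and 0.49, and the last 2 are higher, by 0.35 and 0.42.

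Within a scan day, mice that were high for one class II gene tended to be high for the others. With the mean of each scan day subtracted, the Pearson correlation over the 14 arrays was above 0 for all 45 pairs of the 10 genes, from 0.09 for H2-DMa with H2-DMb1 to 0.88 for H2-Oa with H2-Ob, with a median of 0.64. Over all pairs of genes the median was -0.003 and 49.7% were above 0. The closest pairs were H2-Oa with H2-Ob (0.88), H2-Eb1 with Cd74 (0.87) and H2-Oa with Ciita (0.85), while the chains of I-A, H2-Aa with H2-Ab1, stood at 0.57, below the median, and the pair of H2-DM chains had the lowest value. These are descriptions over arrays that share scaling, slide and cell composition. WT replicate 3 was among the 3 lowest of 14 arrays for 9 of the 10 genes and WT replicate 7 among the 3 highest for 7. The 5 genes outside the set that followed the mean of H2-Aa, H2-Ab1, H2-Eb1 and Cd74 most closely over the 14 arrays, of 14712 with a symbol, were Avpi1 (Pearson r 0.92), Tspan3 (0.92), Foxk1 (0.91), Fut4 (0.91) and Fnbp1l (0.91). None of these passed the test between genotypes, with log2 fold changes from 0.00 to 0.10.

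The genes around the class II set were read in 5 lists, and 24 of their 25 genes were tested. None passed an unadjusted p under 0.05 over all 14 arrays, with 14 above 0 and 10 below and a median log2 fold change of 0.01. Among the factors that bind the X and Y boxes, 7 of 7 were tested and 5 were below 0, including Creb1, which binds the neighbouring X2 box (-0.26, standard error 0.15), and Nfya, a subunit of NF-Y (-0.23, standard error 0.20), while Rfx5, the large subunit of RFX, was at 0.11 (standard error 0.24). Of 9 genes of endosomal processing, 7 were above 0, all between -0.05 and 0.13, such as Lgmn, the asparagine endopeptidase (0.13, standard error 0.17), and Ifi30, the thiol reductase GILT (0.02, standard error 0.10). Of the costimulatory genes, Cd80 (0.11), Cd86 (0.13) and Cd40 (0.00) had no call, and Cd40 went from 0.48 on scan day 1 to -0.36 on scan day 2, an interaction of -0.84 (unadjusted p = 0.0174, adjusted p = 0.179 by limma). H2-Eb2 (-0.13) and H2-DMb2 (0.05), the other class II region genes tested, had no call over all 14 arrays. H2-DMb2, a second H2-DM beta chain, went from 0.47 on scan day 1 to -0.26 on scan day 2, an interaction of -0.73 (unadjusted p = 0.0486, adjusted p = 0.275 by limma), and the interaction of Ctsh, the protease cathepsin H, was -0.39 (unadjusted p = 0.0413, adjusted p = 0.258 by limma).

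The ubiquitin ligases that take class II off the surface were lower in Sting gt/gt mice on scan day 2 by the unadjusted threshold. Marchf1, which marks class II and CD86 for removal and is active in B cells and dendritic cells, had a log2 fold change of 0.29 on scan day 1 and -0.81 (standard error 0.17, unadjusted p = 0.001001, adjusted p = 0.0528 by limma) on scan day 2. Its interaction was -1.10 (unadjusted p = 0.00140, adjusted p = 0.0665 by limma), and over all 14 arrays the log2 fold change was -0.34 (standard error 0.40). Marchf8, a related ligase, was at -0.39 on scan day 2 (unadjusted p = 0.0325, adjusted p = 0.176 by limma) and Cd83, which opposes Marchf1, at -0.08. Nfya completed the 3 of 24 genes that passed the unadjusted threshold on scan day 2, all lower, beside 23.3% of all genes. The B cell markers were lower on the same arrays, as given above, and their part in the Marchf1 value was not tested.

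From its array data the study itself placed 5 genes under MHC class II antigen presentation, none of them a member here. It chose them on these arrays, so the direction of these genes is no independent evidence. Of the 4 tested, 1 passed the unadjusted threshold over all 14 arrays, beside 3.48% of all genes. It was Kif11, a mitotic kinesin, which was lower (log2 fold change -0.34, standard error 0.13, unadjusted p = 0.0206, adjusted p = 0.9998 by limma). Kif5b (-0.14), Dync1li2 (-0.06) and Kif15 (0.01), all parts of microtubule motors, had no call, and H2-M5 was not among the genes tested here. Under the same heading, the study's protein data list H2-Aa as higher in Sting gt/gt mice. Those data are protein from isolated splenic B cells at a later time after immunization. The H2-Aa RNA of whole splenocytes had no call here (0.12). The study also measured I-A on cultured B cells by flow cytometry, with and without a STING ligand. With the ligand it reports a higher I-A intensity on WT than on Sting gt/gt B cells. It also reports fewer I-A positive cells among WT B cells of high forward and side scatter after the ligand.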

How the data were processed

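Splenocyte RNA of 7 WT and 7 Sting gt/gt mice was measured with a single dye on Agilent arrays, each mouse on its own array. The authors extracted the scans with Agilent Feature Extraction 11.0.1.1, which corrects the intensity of each spot for background and leaves arrays unscaled, per the file headers. The array flags deposited beside it (outlier, saturated, well above background) are marks of 0 or 1 with no other unit. The authors also deposited a table of log2 values whose normalization is not given in the sources used here. Its column medians were 5.49 to 5.52, and it correlated with the scanner log2 signal at 0.997 to 0.999.

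The log2 processed signal was taken relative to each array's 75th percentile, outlier flags were left out and spots of a probe averaged. Probes were kept when well above background on at least 7 of 14 arrays (31766 of 56605). Probes were named by accession through RefSeq (32994 matched a symbol), and a gene was read from its brightest kept probe. Genotypes were compared by limma 3.58.1 in R 4.3.3 over all genes with no covariates, with an unadjusted threshold of 0.05 as in the study and Benjamini-Hochberg adjustment over all genes. A fit with scan day and its interaction, fits within scan days and an exact permutation test over 3432 partitions were added. The fit was tested on simulated data. The methods' t-test, Mann-Whitney tests and other scalings, filters, blocks and left-out arrays were run as alternatives. Both groups carry replicate numbers 1 to 7, and deviations of same-numbered arrays correlated at 0.155 to 0.533. Same-numbered arrays share a scan day, and with scan-day means removed the range was -0.41 to 0.25. P-values of the fit without covariates measure the spread between arrays, in which mice, scan day and slide are mixed. Arrays of a slide were alike, with a consensus correlation of 0.43 within slides. On scan day 2 a difference between slides would count as one between genotypes. The members and gene lists were chosen with earlier results of these data known. The genes named are the 10 members, genes of the pathway lists past the threshold and up to 3 others a list, genes past the threshold on a scan day or in the marker lists, named after their values were seen, and the 5 genes most like the mean of 4 members. Single values of some marker genes are not reported here. Figures were made with Python 3.11.15 and matplotlib 3.10.9.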

Additional observations from a re-analysis of the deposited data

Results flagged for a closer look

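The genotype difference of H2-Ob differed between the scan days, by an interaction of -0.75 on the log2 scale (unadjusted p = 0.00765, adjusted p = 0.128 by limma). With each array left out in turn it stayed under 0.05 in 14 of 14 cases, from -0.89 to -0.58. Whether it reflects the mice of each day or the slides, which hold 1 genotype each on scan day 2, cannot be told apart. In WT replicate 2 the log2 signal of H2-Ab1, 7.46, lay far from the other 6 WT arrays, at a gap of 0.571 of the group's range, just past Dixon's critical value for 7 samples. The 7 WT arrays come from both scan days, which this test does not take into account. The next highest, WT replicate 1 (7.17), was of scan day 1, as was replicate 2. In all, 20 groups were looked at in this way, and chance flags about 1 in 20. In the authors' deposited values, where this was not done, H2-Ab1 was at 16.68 in WT replicate 2 and at 16.61 in WT replicate 7.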

How the results depend on the processing

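Of 330 recomputed log2 fold changes of the 10 genes, 269 kept their sign and their side of the threshold, 60 turned sign and 1, H2-Ob on scan day 2, passed the threshold (-0.40). Across settings other than a left-out array, the sign turned with median centring for Ctss (0.0081), with quantile normalization for H2-Eb1 (-0.012) and Cd74 (-0.014), with no scaling between arrays for H2-Ab1 (-0.016), H2-Eb1 (-0.034) and Cd74 (-0.047), and with normexp background correction for Cd74 (-0.0029). It also turned with the authors' series table for H2-Eb1 (-0.0096) and Cd74 (-0.012), with array weights and intensity trend for H2-Ab1 (-0.00050), H2-Eb1 (-0.032), Cd74 (-0.057) and H2-DMa (-0.018), and with slide as a random block for Cd74 (-0.032), H2-Oa (0.0056) and H2-Ob (0.027). It turned with slide as a fixed block for Cd74 (-0.057), H2-DMb1 (-0.059), H2-Oa (0.058), H2-Ob (0.19) and Ciita (0.034), with scan day 1 taken alone for H2-Oa (0.16), H2-Ob (0.35), Ciita (0.10) and Ctss (0.013) as well, and further with scan day 2 taken alone for H2-Aa (-0.031), H2-Eb1 (-0.048), Cd74 (-0.033) and H2-DMa (-0.17), and with scaling to the B cell markers (a setting chosen after seeing the data, which moved all genes alike, to a median of 0.17) for H2-Oa (0.13), H2-Ob (0.072), Ciita (0.033) and Ctss (0.14). With an array left out in turn the values that turned sign ran as follows: H2-Aa from -0.0088 to 0.22, H2-Ab1 from -0.0080 to 0.10, H2-Eb1 from -0.028 to 0.046, Cd74 from -0.058 to 0.074, H2-DMa from -0.050 to 0.15, H2-Oa from -0.087 to 0.041, H2-Ob from -0.18 to 0.0094 and Ctss from -0.078 to 0.061. The count of the 10 genes past the threshold was 0 under each alternative but scan day 2 taken alone (1). With the methods' t-test or Mann-Whitney test, the exact permutation test and the replicate block it was 0. The count over all genes, 868, was 1928 with the authors' series table, 4360 with weighted arrays and an intensity trend, 1416 with the replicate block, 1812 with scan day as a term, 445 and 517 with slide as a random and as a fixed block, 5805 on scan day 2 alone, and 496 to 1967 with an array left out. The fixed slide block compares 5 arrays of scan day 1. The replicate block changed no call among the 10 genes. The count of the 10 genes whose genotype difference differed between scan days, 1, was 2 with quantile normalization, normexp, the authors' series table and the mean of a gene's probes, 1 to 2 with an array left out, and 5 with scaling to the B cell markers. The causes were not tested. Signal did not limit these genes, since all 15 probes were well above background, while 3 or 4 mice a genotype limit each scan day.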
